A study of Mus musculus with 8 samples.

Results

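The genes described here are the 4 fibroblast growth factor (FGF) receptors Fgfr1, Fgfr2, Fgfr3 and Fgfr4 and the ligands Fgf1, Fgf2, Fgf7 and Fgf10, which mesenchymal cells are known to make. They were taken by symbol, each from the probe set that the platform annotation gives to that gene alone, and all 8 were found among the 19938 genes measured. Every member had 1 such probe set. They were measured in hepatic stellate cells, pericytes that line the liver sinusoids and store vitamin A. The cells came from male Balb/c mice and were enriched on a density gradient, sorted by flow cytometry on retinoid autofluorescence and lysed straight after the sort. The reverted group (4 arrays) came from mice that had 4 injections of CCl4 (carbon tetrachloride, a liver toxin used to induce fibrosis) at 2 per week, each of 0.5 µl per g of body weight, and were then left for 45 days. The quiescent group (4 arrays) came from normal mice, for which the labels name no vehicle injection. The labels give an age of 18 weeks for both groups in one place and of 16 weeks for the reverted group in another, which was not settled. Whether each array stands for 1 animal or for pooled animals is not stated, and the p-values therefore reflect the spread between these samples alone, part or all of which may be technical.

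FGF receptors are tyrosine kinases of the cell surface. A ligand binds them together with heparan sulfate, or with a klotho protein for the hormone-like ligands, and the receptor then signals through adaptor proteins to the RAS and MAP kinase cascade, which induces its own inhibitors of the Sprouty and DUSP families. In the liver, FGF2 is known as a mitogen of stellate cells and fibroblasts, FGF7 and FGF10 as mesenchymal signals to epithelium, and FGFR4 as the hepatocyte receptor through which intestinal FGF15 restrains bile acid synthesis. Splice forms of FGFR1, FGFR2 and FGFR3 (IIIb and IIIc) bind different ligands, and a single value per gene does not tell them apart.

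None of the 8 genes passed the test between reverted and quiescent cells. The count was 0 of 8 at an adjusted p under 0.05 in limma, where 142 of all 19938 genes (0.712%) were called, with 105 (0.527%) higher and 37 (0.186%) lower in reverted cells (128 and 91 after quantile normalization). At an unadjusted p under 0.05 the count was 3 of 8, namely Fgfr1, Fgfr3 and Fgf2, all with the lower mean in reverted cells, against 16.0% of all genes in either direction, 7.40% with the lower mean and 8.56% with the higher mean in reverted cells. The 4 reverted arrays lay entirely below the 4 quiescent arrays for Fgfr1 and Fgfr3, or 2 of 8 genes, against 8.73% of all genes in either direction, 4.09% with reverted arrays below and 4.64% with reverted arrays above. Of the 8 genes 7 had the lower mean in reverted cells and Fgf1 had the higher one. Over all genes 53.6% had the lower mean, a share that is not matched for level. The median log2 change (reverted minus quiescent) of the 8 was -0.08 (-0.04 after quantile normalization), against -0.01 over all genes. Over all genes the number of calls was 59 without reverted array 3, 54 without reverted array 4, 73 without quiescent array 1 and 247 without quiescent array 4, and the count among the 8 became 1 (Fgfr1) without reverted array 1.

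The values are log2 levels after robust multi-array averaging (RMA), so that a difference of 1 is a doubling, and each is the brightness of one probe set, which says nothing of one gene's amount against that of another. In cells sorted as a bulk sample, fewer cells that express a gene and less RNA per cell cannot be told apart. Median levels of the 8 arrays ran from 7.66 to 7.74. On the principal component with the largest share of variance (35.3%) the reverted arrays lay between -11.5 and -6.07 and quiescent arrays 1 to 3 between 8.79 and 14.0, with quiescent array 4 apart at 0.21. Of 13 measured stellate markers 1 fell (Gfap, log2 change -0.49) and 12 did not pass. All 13 had the lower mean in reverted cells (12 of 13 after quantile normalization or with array weights), and the median log2 change was -0.05. For 4 of them all reverted arrays lay below the quiescent arrays, against 4.09% of all genes. The summed levels of the 13 markers were 17.186 to 17.255 in reverted and 17.258 to 17.28 in quiescent arrays. The retinol esterifying gene Lrat showed the smallest change (-0.00044). Lrat was at level percentile 99.9 of all genes, close to the upper end of the scale, where differences can be compressed. Gfap was the dimmest of the 13, at level percentile 62.3. All 15 measured hepatocyte markers had the higher mean in reverted cells (14 with array weights), with 0 called in limma and 7 at an unadjusted p under 0.05. Their summed level (log2 of the summed unlogged values) was 13.27 to 13.79 in reverted and 12.35 to 13.66 in quiescent arrays. Of 13 endothelial markers 11 had the higher mean in reverted cells and 0 were called, with summed levels of 13.03 to 13.53 in reverted and 12.81 to 13.27 in quiescent arrays. At an unadjusted p under 0.05 in limma 2 of them were higher and 0 lower. Only Clec4g had separate groups, with reverted arrays above (log2 change 0.50, adjusted p = 0.063). Of 14 portal fibroblast and mesothelial markers 2 rose, Wt1 (log2 change 1.39) and Dpt (1.69), while 11 had the lower mean in reverted cells and the median log2 change was -0.09. Reverted arrays lay entirely above for 3 of the 14 and entirely below for 2, against 4.64% and 4.09% of all genes. Besides Wt1 and Dpt, Cd34 lay above (log2 change 0.60, adjusted p = 0.0631 in limma). No macrophage, smooth muscle, cholangiocyte, lymphocyte or immediate early gene list had a called member. The immediate early genes were bright, at level percentiles 79.1 to 99.9, so differences among them may be compressed. Of 6 smooth muscle markers, Acta2 (log2 change 0.50) and Tagln (0.66) were higher at an unadjusted p under 0.05 in limma. Cnn1 (-0.09) was lower at that threshold. Of 11 macrophage and myeloid markers 1 reached it, Lyz2 (0.59), which was higher in reverted cells with separate groups. Over all genes 8.56% were higher and 7.40% lower in reverted cells at that threshold. These arrays have no true zero, so no marker could be called absent.

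**Figure D1:**
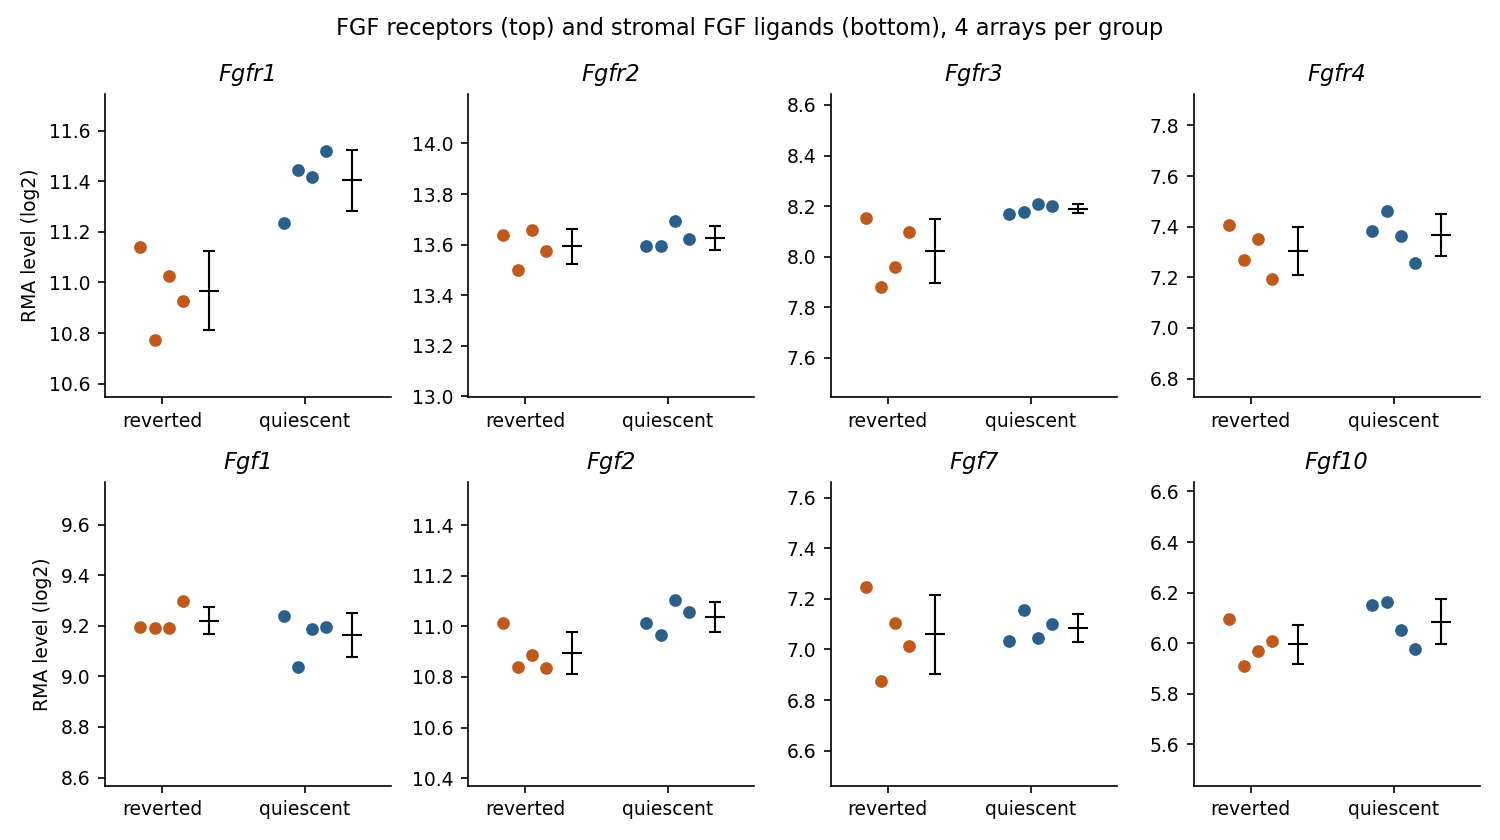
RMA levels (log2, vertical axis, with the same span of 1.2 in each panel) of the 4 receptors (top row) and 4 ligands (bottom row) in reverted and quiescent cells. Points are arrays 1 to 4 from left to right, and the bar beside them is the mean ± SD (n = 4). The groups do not overlap for Fgfr1 and Fgfr3, and they overlap for the other 6 genes.

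Promoter windows (250 bases before to 50 after a start) were looked up for the members in RefSeq, assembly GRCm38.p6, and 6 of 8 matched, all but Fgfr1 and Fgf1. The sequences upstream of the first annotated base of the 3 matched receptor genes are shown. A link between these sequences and the levels in the 2 groups was not tested. The sequences run 5′ to 3′ on the gene's strand, in lower case with the GC box, the core motif of Sp family factors, in capitals. The motif searched was GGGCGG or its reverse complement CCGCCC. The Fgfr2 sequence lies at chr7:130266809-130267058 (minus strand), the Fgfr3 sequence at chr5:33721474-33721723 (plus strand) and the Fgfr4 sequence at chr13:55152568-55152817 (plus strand).
Fgfr2: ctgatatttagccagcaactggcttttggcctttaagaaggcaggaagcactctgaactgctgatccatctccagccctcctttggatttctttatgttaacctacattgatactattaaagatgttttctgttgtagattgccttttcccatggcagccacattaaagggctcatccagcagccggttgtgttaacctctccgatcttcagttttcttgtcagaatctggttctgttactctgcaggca
Fgfr3: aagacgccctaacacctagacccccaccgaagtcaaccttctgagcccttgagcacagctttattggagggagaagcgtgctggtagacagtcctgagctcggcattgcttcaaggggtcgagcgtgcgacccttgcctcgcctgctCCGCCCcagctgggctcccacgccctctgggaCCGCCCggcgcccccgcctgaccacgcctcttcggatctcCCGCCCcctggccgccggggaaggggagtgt
Fgfr4: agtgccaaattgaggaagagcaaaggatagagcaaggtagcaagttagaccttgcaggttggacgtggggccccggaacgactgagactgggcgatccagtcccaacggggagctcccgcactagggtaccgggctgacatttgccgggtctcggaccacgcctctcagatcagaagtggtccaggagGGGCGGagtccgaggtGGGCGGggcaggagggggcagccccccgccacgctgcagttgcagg
The printed Fgfr2 sequence holds 0 GC boxes, that of Fgfr3 holds 3 and that of Fgfr4 holds 2. In the whole windows of 300 bases around these starts the counts were 0, 4 and 4, with a GC content of 43.7%, 69.7% and 65.3%, against a median of 52.7% over 32851 windows. Fgfr3 has a second window, at chr5:33722056-33722355, with 2 GC boxes and a GC content of 73.0%. A GC box on either strand was found in 35.7% of these windows. Of the ligand genes, Fgf2 and Fgf10 held 1 GC box each in their windows and Fgf7 held 0. The sequence TATAAA, searched on both strands, was in 0 of the members' windows and in 13.6% of all windows. These matches describe the reference sequence of the C57BL/6J strain, while the cells came from Balb/c mice.

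Among the receptors, Fgfr1 stood furthest apart between the groups. Fgfr1, the main FGF receptor of mesenchymal cells, lay at 11.14, 10.77, 11.02 and 10.93 in reverted arrays 1 to 4, against 11.23, 11.44, 11.42 and 11.52 in quiescent arrays 1 to 4. Every reverted array was below every quiescent array, with a smallest gap of 0.09 between reverted array 1 and quiescent array 1. The means were 10.97 ± 0.16 in reverted and 11.40 ± 0.12 in quiescent cells (SD, n = 4 each), a ratio of 0.739 with a 95% confidence interval from 0.647 to 0.844. The log2 change of -0.44 (SE 0.09) had an adjusted p = 0.0571 in limma and did not pass. Its p ranked at position 199 of the 19938 genes.

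Whether Fgfr1 passed the threshold depended on the setting. The sign of its difference stayed the same, but most settings could not turn it. Dropping dim genes, the mean of all probe sets, the intensity trend with robust variance and the replicate block leave its log2 change as it was. As its groups are separate, leaving out or weighting an array cannot reverse the sign. Over 18 alternatives the log2 change ran from -0.50 to -0.37 and the adjusted p from 0.0282 to 0.174. It was called in 6 of them, with an adjusted p of 0.0282 after quantile normalization, 0.0384 after median centring, 0.0482 without the lower 50% of genes by level, 0.0351 with an intensity trend and robust variance, 0.0423 with array weights and 0.0494 without reverted array 1. With each array's mean of the hepatocyte markers as a covariate the log2 change was -0.50 (adjusted p = 0.0906), and without quiescent array 4 it was -0.40 (adjusted p = 0.0743). With the mean of the immediate early genes, which respond to tissue dissociation, as a covariate it was -0.44 (adjusted p = 0.107). These genes lay at level percentiles 79.1 to 99.9, and compression near the upper end of the scale limits what this covariate can capture.

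**Figure D2:**
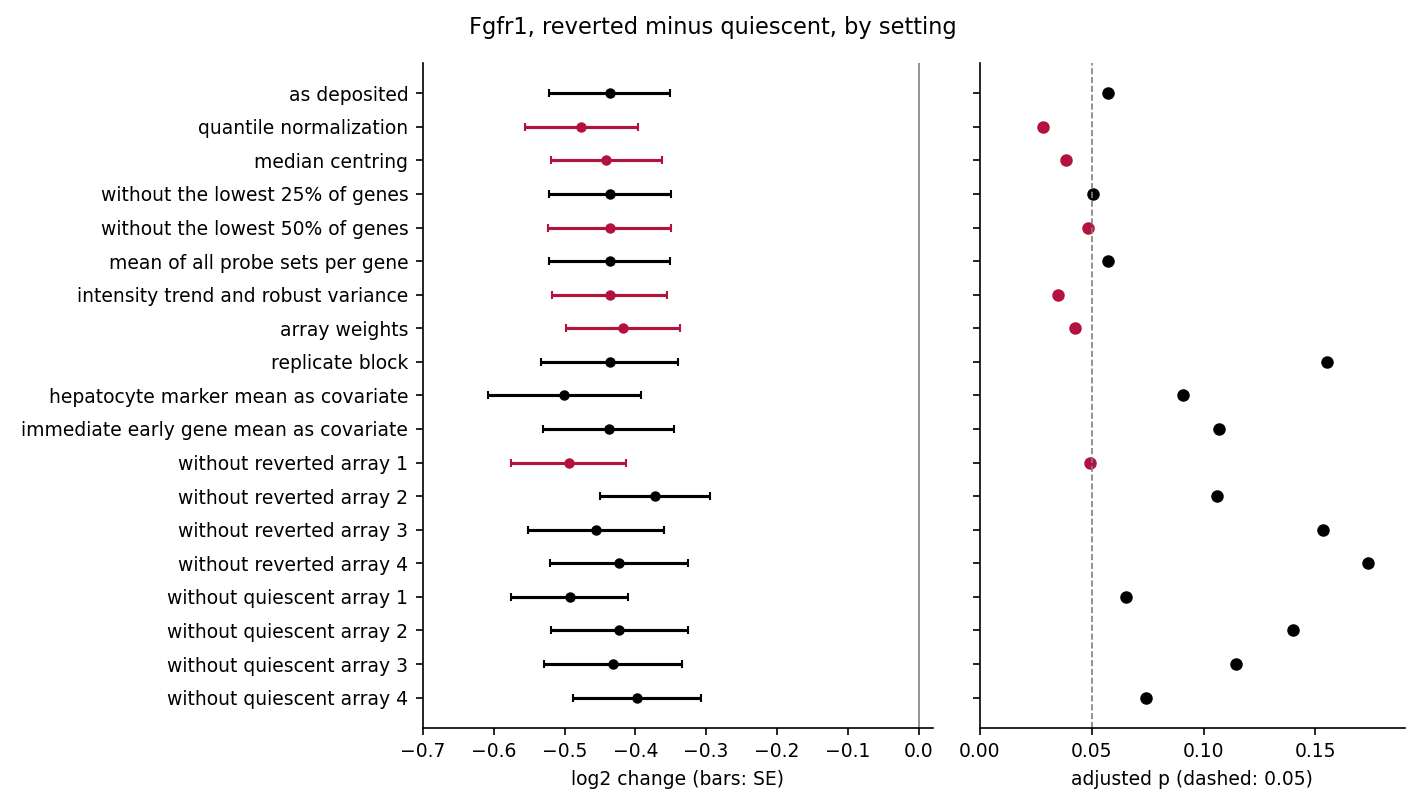
Log2 change of Fgfr1 (reverted minus quiescent, left, with SE) and its limma adjusted p (right, dashed line at 0.05) for the values as deposited and 18 alternatives. Every change lies between -0.50 and -0.37, and the 6 settings in red have an adjusted p under 0.05.

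The other receptors differed less. Fgfr3, a receptor best known for restraining the growth of cartilage and bone, lay at 8.15, 7.88, 7.96 and 8.10 in reverted arrays, against 8.17, 8.18, 8.21 and 8.20 in quiescent arrays. The reverted arrays were all lower, by as little as 0.02, and were more widely spread (SD 0.12) than the quiescent arrays (SD 0.02). Its log2 change was -0.17 (SE 0.06, adjusted p = 0.234 in limma), and its adjusted p over the alternatives ran from 0.133 to 0.449.

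Fgfr2, whose IIIb form is the epithelial receptor of FGF7 and FGF10, lay at 13.64, 13.50, 13.66 and 13.58 in reverted arrays and at 13.59, 13.59, 13.69 and 13.62 in quiescent arrays. The groups overlapped, and the log2 change was -0.03 (adjusted p = 0.747), with a 95% interval of the ratio from 0.909 to 1.05. Its probe set was at level percentile 99.5 of all genes, close to the upper end of the scale, where differences can be compressed. Fgfr4 lay at 7.41, 7.27, 7.35 and 7.19 in reverted arrays, against 7.38, 7.46, 7.36 and 7.26 in quiescent arrays. These ranges overlapped too, with a log2 change of -0.06 (adjusted p = 0.62) and a 95% interval of the ratio from 0.873 to 1.05. The Fgfr4 probe set was at level percentile 39.5 of all genes. With the mean of the hepatocyte markers as covariate the log2 change of Fgfr4 was -0.15 (adjusted p = 0.223).

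Among the ligands, only Fgf2 reached an unadjusted p under 0.05. Fgf2, the basic FGF that lacks a signal peptide and is held on matrix heparan sulfate, lay at 11.01, 10.84, 10.89 and 10.84 in reverted arrays, against 11.01, 10.97, 11.10 and 11.06 in quiescent arrays. Reverted arrays 2, 3 and 4 were below all quiescent arrays, while reverted array 1 lay within the quiescent range. The log2 change was -0.14 (SE 0.05, unadjusted p = 0.0235, adjusted p = 0.244 in limma), a ratio of 0.907 with a 95% interval from 0.837 to 0.984.

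Fgf1, the acidic FGF that binds all 4 receptors, lay at 9.20, 9.19, 9.19 and 9.30 in reverted arrays, against 9.24, 9.04, 9.19 and 9.19 in quiescent arrays. The groups overlapped, with a log2 change of 0.06 (adjusted p = 0.61) that was -0.0083 after quantile normalization. The 95% interval of the ratio ran from 0.958 to 1.13.

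Fgf7, also called keratinocyte growth factor, lay at 7.25, 6.88, 7.10 and 7.01 in reverted arrays and at 7.03, 7.16, 7.05 and 7.10 in quiescent arrays. Reverted arrays 1 and 2 were the highest and the lowest of all 8 arrays, so the reverted group enclosed the quiescent one. The log2 change was -0.02 (adjusted p = 0.884), with a 95% interval of the ratio from 0.876 to 1.10, and its sign was not stable (0.023 after quantile normalization and 0.036 without reverted array 2). Fgf10, which drives budding of lung and other epithelia in the embryo, lay at 6.10, 5.91, 5.97 and 6.01 in reverted arrays, against 6.15, 6.16, 6.05 and 5.98 in quiescent arrays. Its groups overlapped, with a log2 change of -0.09 (adjusted p = 0.452) and an interval of the ratio from 0.86 to 1.03. Fgf7 and Fgf10 were at level percentiles 35.3 and 15.2, where a change may be understated.

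The members also varied between arrays of one group. Reverted array 2 was the lowest of all 8 arrays for 5 members, Fgfr1, Fgfr2, Fgfr3, Fgf7 and Fgf10. Reverted array 1 was the highest reverted array for Fgfr1, Fgfr3, Fgfr4, Fgf2, Fgf7 and Fgf10. Without reverted array 2 the log2 changes were -0.37 for Fgfr1 (adjusted p = 0.106) and -0.12 for Fgfr3 (adjusted p = 0.372). With the hepatocyte covariate no member was called. The log2 changes of Fgfr2, Fgfr4, Fgf10, Fgf7 and Fgf1 were then -0.06, -0.15, -0.17, -0.11 and 0.12, each over 1.5 times as large as without it (adjusted p = 0.628, 0.223, 0.173, 0.492 and 0.304 in limma).

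The genes whose log2 values, centred on each gene's mean, followed a member most closely over the 8 arrays were sought for Fgfr1 and Fgf2, the receptor and the ligand with the smallest p. For Fgfr1, whose own root mean square deviation from its mean was 0.25, they were Iqgap2 (root mean square difference 0.08), Dmtn (0.08) and Csgalnact1 (0.08). Their log2 changes were -0.33, -0.37 and -0.44, and of the 3 only Dmtn, which encodes an actin bundling protein, was called in limma (adjusted p = 0.0412). For Fgf2, with a deviation of 0.09, they were Smo, Dexi and Six3, each at a difference of 0.03, and none was called. Likeness over 8 arrays in 2 groups describes these profiles only.

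The wider FGF pathway is given by 7 lists with 95 genes, of which 88 were analysed, and 1 rose, 2 fell and 85 did not pass. Over all genes 0.527% rose and 0.186% fell. Among the heparan sulfate enzymes Hs6st3 fell and Sulf1 rose. Hs6st3, a sulfotransferase that adds 6-O-sulfate groups to the chains, lay at 8.79, 8.73, 8.47 and 8.51 in reverted arrays, against 9.24, 9.43, 9.24 and 9.38 in quiescent arrays. No array of one group reached the other, and Hs6st3 fell to a ratio of 0.617 (log2 change -0.70, SE 0.08, adjusted p = 0.00801 in limma). Its call held in all 18 alternatives, with an adjusted p from 0.00354 to 0.0391. The other 6-O-sulfotransferase genes, chosen after their values were seen, had the higher mean in reverted cells without passing the test. Hs6st1 overlapped between the groups (log2 change 0.11, adjusted p = 0.358 in limma). Hs6st2 had separate groups with a smallest gap of 0.02 (log2 change 0.12, adjusted p = 0.288). The probe set of Hs6st2 was dim, at level percentile 11.5 of all genes.

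Sulf1, an extracellular sulfatase that removes 6-O-sulfate groups, lay at 8.25, 7.80, 8.02 and 8.16 in reverted arrays, against 7.48, 7.26, 7.47 and 7.38 in quiescent arrays. The groups were separate, and Sulf1 rose 1.58-fold (log2 change 0.66, SE 0.09, adjusted p = 0.0174). It was not called without reverted array 3 (0.0636) or 4 (0.0703) or with the mean of the hepatocyte markers as covariate (0.0839), where its log2 change was 0.63. Of the 17 enzymes measured in this list, 9 had the higher and 8 the lower mean in reverted cells. The median log2 change of these enzymes was 0.02 (-0.0080 after quantile normalization).

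Flrt2, a membrane protein with leucine-rich repeats whose family is known to bind FGF receptors, was the only called gene of the 10 co-receptors and binding proteins. Flrt2 lay at 6.60, 6.61, 6.49 and 6.59 in reverted arrays, against 7.14, 6.88, 6.98 and 7.20 in quiescent arrays. The probe set of Flrt2 was dim, at level percentile 30.5 of all genes. All reverted arrays were lower, and Flrt2 fell to a ratio of 0.718 (log2 change -0.48, SE 0.07, adjusted p = 0.0206). The adjusted p was 0.0508, 0.0831 and 0.0703 without reverted array 2, 3 or 4, 0.0676 without quiescent array 1, and 0.0573 with the replicate number as a block. With the mean of the hepatocyte markers as covariate the log2 change was -0.35 (adjusted p = 0.0696). Without quiescent array 4, which stood apart from its group, the log2 changes of Hs6st3, Sulf1 and Flrt2 were -0.68, 0.66 and -0.43, and all 3 were called.

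**Figure D3:**
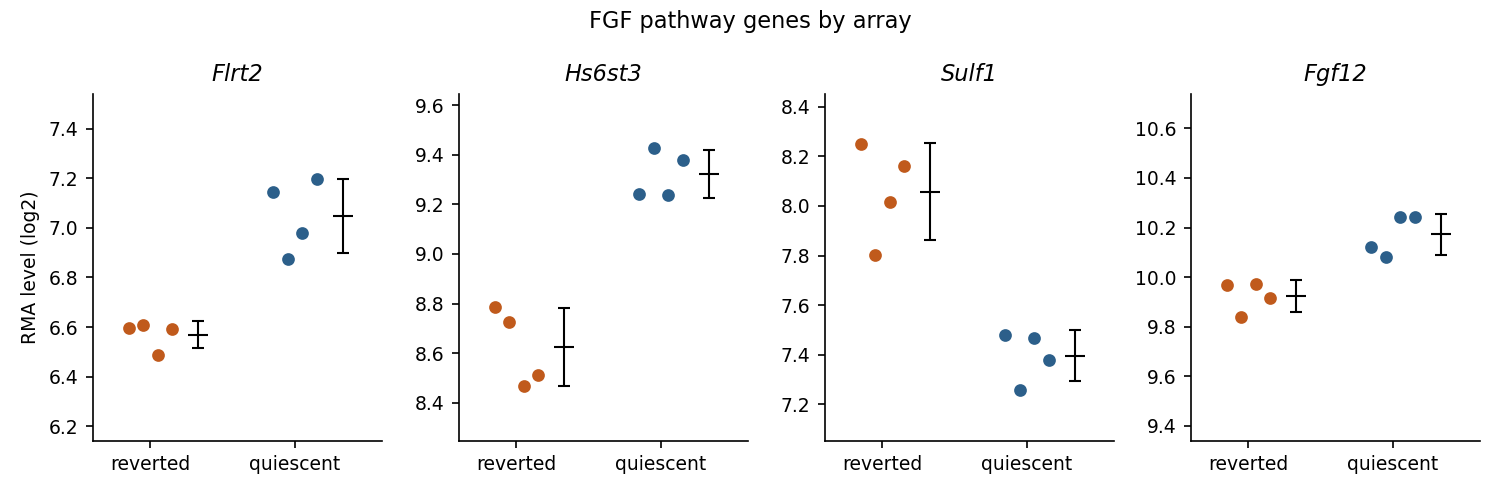
RMA levels (log2) of the 3 called FGF pathway genes Flrt2, Hs6st3 and Sulf1 and of Fgf12 in reverted and quiescent cells, with arrays 1 to 4 as points and the mean ± SD (n = 4) as a bar. The groups do not overlap in any of the 4 panels, with Sulf1 higher and the others lower in reverted cells.

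Among the 14 other FGF ligands 0 were called, 1 had an unadjusted p under 0.05 (Fgf9), and all 14 had the lower mean in reverted cells (11 of 14 after quantile normalization). Their median log2 change was -0.09. Their probe sets lay at level percentiles 22.6 to 54.2, and 53.6% of all genes had the lower mean. That share is not matched for level. The median log2 change over all genes was -0.01, against 0.0048 with the dimmest 25% dropped and 0.03 with the dimmest 50% dropped. Dimmer genes of any kind thus leaned lower in reverted cells, and a set of like level was not tested. Among these 14 ligands the smallest p values were those of Fgf9 (-0.14, adjusted p = 0.299), Fgf20 (-0.10, adjusted p = 0.314) and the bile acid hormone Fgf15 (-0.13, adjusted p = 0.317). Of the 4 intracellular FGF homologous factors, which bind voltage-gated sodium channels and are not secreted, 0 were called and 3 had the lower mean. Fgf12 averaged 9.92 ± 0.06 in reverted and 10.17 ± 0.08 in quiescent cells (SD, n = 4 each), with separate groups and a log2 change of -0.25 (adjusted p = 0.0784, and called after quantile normalization). Fgf14 (-0.15, adjusted p = 0.247) and Fgf11 (0.13, adjusted p = 0.321) did not pass.

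Of the 12 heparan sulfate core proteins 0 were called, and 6 had the higher mean in reverted cells (4 after quantile normalization). The transmembrane syndecans Sdc4 and Sdc3 pointed in opposite directions, with averages of 11.83 in reverted and 11.65 in quiescent cells for Sdc4 (adjusted p = 0.117) and of 13.01 in reverted and 13.15 in quiescent cells for Sdc3 (adjusted p = 0.139). The glypican gene Gpc1 differed by -0.16 on the log2 scale (adjusted p = 0.315). Of 13 measured adaptor and relay genes 0 were called, and the smallest p values were those of Nras (0.18, adjusted p = 0.26), the ubiquitin ligase gene Cbl (0.07, adjusted p = 0.413) and the kinase gene Map2k1 (0.07, adjusted p = 0.45).

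The 18 feedback inhibitors and induced genes are the downstream readout of FGF signalling, though other growth factors induce them too. Of these 0 were called, 11 had the higher mean in reverted cells, and the median log2 change was 0.07. Myc, a transcription factor of cell growth, lay at 12.25, 12.22, 12.27 and 12.38 in reverted arrays, against 11.61, 11.35, 11.30 and 12.08 in quiescent arrays. The groups did not overlap, and quiescent array 4 was the closest to the reverted group (log2 change 0.70, adjusted p = 0.082, and called in 4 of the 18 alternatives, namely without that array, with array weights and with either covariate). The phosphatase gene Dusp4, an inhibitor of MAP kinases, averaged 10.35 in reverted and 9.96 in quiescent cells (adjusted p = 0.198), and Etv1, a transcription factor induced by FGF signals, averaged 12.08 in reverted and 12.21 in quiescent cells (adjusted p = 0.188).

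**Figure D4:**
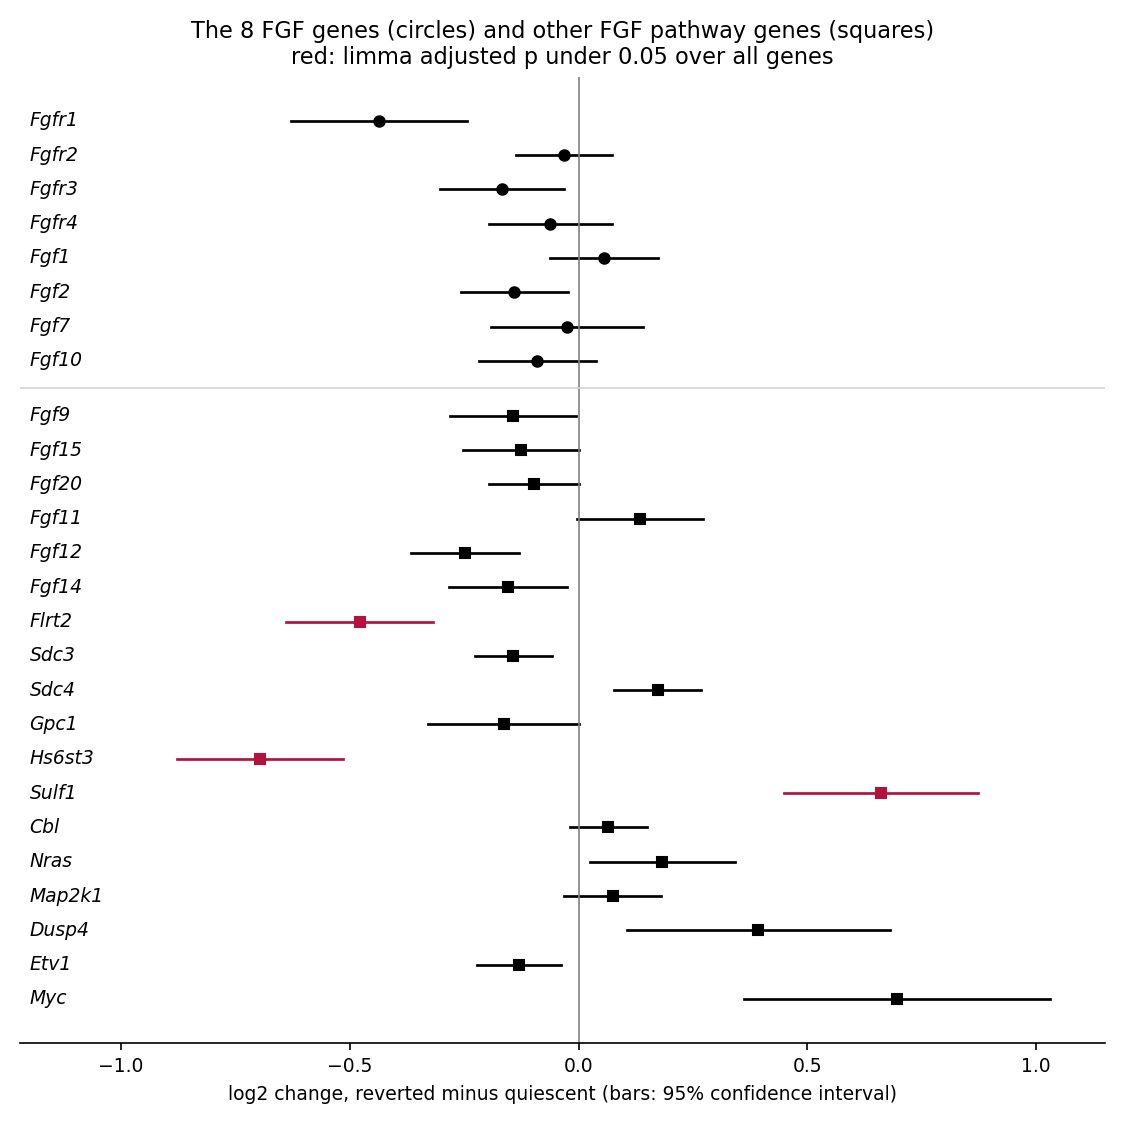
Log2 changes (reverted minus quiescent, horizontal axis) with 95% confidence intervals for the 8 FGF members (circles) and the named genes of the FGF pathway lists (squares). Flrt2, Hs6st3 and Sulf1, in red, have a limma adjusted p under 0.05 over all genes, and no member does.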

How the data were processed

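RNA (150 ng) was amplified and biotin-labelled with whole-transcript kits and hybridised to an Affymetrix gene array, 1 per preparation. The authors made the deposited log2 values with RMA (background correction, normalization across arrays, probe set summary), per the submitters' processing notes. Its version and settings and any genome build are not given in the sources used here. Values of 35556 probe sets were deposited, with 0 missing. The annotation gives 1 symbol to 21789, several to 1621 and does not list 12146. The RefSeq gene table (GRCm38.p6) held the Entrez identifiers of 21698, with 0 symbols updated. Where a gene had several probe sets (999 genes), the one with the highest mean over the 8 arrays stood for it. Some genes of the pathway lists are not analysed here.

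The groups were compared in R 4.3.3 by limma 3.58.1 (lmFit, then eBayes), 2-sided and with neither covariates nor a filter on dim genes, with Benjamini-Hochberg adjustment over 19938 genes and a threshold of 0.05. Errors are the SE of that fit. Tables were made with Python 3.11.15 and pandas 2.3.3, plots with matplotlib 3.10.9. The fit was tested on simulated data. Hybridisation batches and scan dates are not given in the sources used here. Precision is limited by the number of arrays.

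The members and lists were chosen with earlier results of these data known. The text names all members, the called genes of each pathway list or else its 3 with the smallest p, and the 3 genes closest in profile to a receptor and to a ligand. Alternatives were quantile normalization, median centring, dropping the dimmest 25% or 50% of genes, the mean of all probe sets, array weights, a robust variance with an intensity trend, the replicate number as a block, hepatocyte marker or immediate early gene means as covariates, and leaving out each array in turn.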

Additional observations from a re-analysis of the deposited data

Results flagged for a closer look

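Among 192 gene and group pairs of the FGF members and pathway genes, 10 had a single array far from the other 3 of its group by Dixon's ratio, and chance flags about 5% of such pairs. Among the members this was Fgf1, at 9.30 in reverted array 4, with the other reverted arrays at 9.19 to 9.20. In the reverted group, Flrt2 was at 6.49 in array 3, with the others at 6.59 to 6.61, and Fgf22 at 7.84 in array 2, with the others at 7.99 to 8.02. The syndecan gene Sdc1 was at 7.51 in reverted array 1, with the others at 7.24 to 7.26. Hs6st2 was at 6.05 in reverted array 4, with the others at 5.87 to 5.88. Il17rd, a feedback inhibitor of FGF signalling, was at 9.04 in reverted array 2, with the others at 9.35 to 9.40. In the quiescent group, Klb was at 6.58 in array 2, with the others at 6.34 to 6.38, and the adaptor gene Frs3 at 9.88 in array 3, with the others at 9.62 to 9.66. Quiescent array 4 was the odd one for Fgf4, at 7.58 with the others at 7.93 to 7.96, and for Hs6st1, at 10.41 with the others at 10.23 to 10.25.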

How the results depend on the processing

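No member was called as deposited, while 1 (Fgfr1) was called after quantile normalization, median centring, leaving out the lower 50% of genes (1 of the 5 members then tested), an intensity trend with robust variance, or array weights, and 0 to 1 with an array left out. Of the other FGF pathway genes 3 were called as deposited, 1 without the lower 50% of genes, where Flrt2 and Sulf1 were not tested, and 1 to 4 with an array left out. Over all genes 142 were called as deposited, 219 after quantile normalization, 306 with array weights, 83 with the hepatocyte covariate and 54 to 247 with an array left out. The sign turned for Fgf1 (-0.0083) and Fgf7 (0.023) after quantile normalization, and for Fgf7 with an array left out, where it ran from -0.087 to 0.036. The changes of Fgfr1, Fgfr2, Fgfr3, Fgfr4, Fgf2 and Fgf10 were negative in every alternative that tested them. For many alternatives this was fixed in advance. Dropping dim genes, the mean of all probe sets, the intensity trend with robust variance and the replicate block leave a member's change as it was. For Fgfr1 and Fgfr3, whose groups are separate, leaving out an array could not turn the sign. The replicate numbers did not pair the arrays: deviations of same-numbered arrays correlated at -0.15 to 0.08, and 0 reverted arrays correlated best with their own number. With the replicate block 63 genes were called, and the adjusted p of Fgfr1 was 0.155. The cause of the other shifts was not tested.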

Other observations

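Of the 17 heparan sulfate enzymes measured, 3 had all reverted arrays above and 3 had all reverted arrays below the quiescent arrays. Over all genes the shares were 4.64% above and 4.09% below. Over the 88 pathway genes the counts were 6 above and 7 below. Besides Hs6st2, 3 heparan sulfate enzyme genes, chosen after their values were seen, had separate groups without passing the test in limma. Hs3st1, a 3-O-sulfotransferase, lay at 6.75 to 7.01 in reverted and at 7.07 or more in quiescent arrays (log2 change -0.27, adjusted p = 0.167). Hpse, the heparanase that cuts the chains, had a log2 change of -0.15 (adjusted p = 0.186). Sulf2, the second 6-O-sulfatase, had a log2 change of 0.18 (adjusted p = 0.176). The adhesion protein gene Ncam1, which can bind FGF receptors, was at 7.35 to 7.76 in reverted arrays, above every quiescent array (log2 change 0.33, adjusted p = 0.166).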
